A study of Mus musculus with 9 samples.

Results

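This comparison set the 6 mESC lines derived from IVF embryos against the 3 lines derived from flushed blastocysts. It describes the genes for which every IVF line stood above, or every IVF line stood below, all 3 flushed lines. Transcript levels came from Affymetrix Mouse Gene 1.0 ST arrays, with 1 array per line, on which a transcript cluster is the set of probes that reads 1 gene or a few near-identical genes. Of 23410 clusters with an annotated gene, 226 were higher in all 6 IVF lines (0.965%) and 230 were lower in all 6 (0.982%), which makes 456 clusters in all. These levels themselves chose the members, so their differences are given as a description. If group had no bearing on level, all 6 IVF lines would stand above all 3 flushed lines in 1 of 84 arrangements. That is a fraction of 0.0119 in each direction, and the observed 0.965% and 0.982% both lie below it. The number of members thus does not exceed what arrangement alone would give.

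Natural mating and flushing of the uterus gave the blastocysts of the mESCFB lines, numbered FB1 to FB3. IVF and growth under 5% O2 in KSOM, a medium supplied here with amino acids, gave those of the mESCKAA lines, KAA1 to KAA3. IVF and growth under 20% O2 in the older Whitten's medium gave those of the mESCWM lines, WM1 to WM3. All lines were labelled C57BL/6 and female, and all came from embryos of hormone-injected females. They were derived on CF-1 fibroblast feeders with LIF and the inhibitors called 2i, moved to gelatin and collected at the eighth passage. Each line is a single isolate from 1 blastocyst, and fertilization and culture outside the body come together in both IVF groups, so that their effects cannot be told apart.

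Embryonic stem cells are taken from the inner cell mass of the blastocyst and keep its capacity to form all tissues of the body. Their identity rests on a network of transcription factors around Oct4 (Pou5f1), Sox2 and Nanog. MicroRNAs of the miR-290 and miR-302 families can promote rapid division. In undifferentiated female lines both X chromosomes are active, and silencing through the noncoding RNA Xist begins when the cells differentiate.

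The 9 embryonic stem cell markers were measured at 6.11 to 12.14 on the log2 scale in every line, above the median of all clusters of 4.67. The Y-linked gene Eif2s3y stood at 4.78 in FB1, 3.72 in KAA2 and 5.19 in WM3, against 1.77 to 2.20 in the other 6 lines, although all were labelled female. Of the other Y-linked genes named, Uty was also highest in these lines, at 2.63 in FB1 and 4.42 in WM3, with KAA2 between them. It stood at 1.77 to 2.11 in the other 6 lines. Kdm5d did not set them apart, at 2.04 in FB1, 1.96 in KAA2 and 2.04 in WM3, and was highest in WM2 at 2.46. FB1, KAA2 and WM3 each belong to a different group, and their part in the results was not tested beyond leaving them out. Fibroblast markers averaged 5.13 to 5.18 in the mESCFB lines and 5.22 to 5.49 in the IVF lines, and 12 of 15 measured had a mean difference above 0, with a median of 0.19. Of the 15 markers 9 lay at or above the median level, among them Vim at 8.69 to 9.82 and Fn1 at 7.42 to 8.65, while Postn, Lum and Dcn stayed at 1.68 to 3.52 in all lines. In such bulk samples fewer cells of a type and less RNA per cell cannot be told apart.

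No cluster passed limma at an adjusted p under 0.05 for the IVF lines against mESCFB (0 of 23410, 0%). The lowest adjusted p was 0.898, which 5238 clusters shared, and 1166 clusters (4.98%) had an unadjusted p under 0.05, of which 594 were higher and 572 lower. A share of 4.98% is close to the 0.05 expected where no cluster differs. The rank product was run over the 18 differences between an IVF and an mESCFB line, which share lines with each other. Among the 23410 clusters it called 40 higher and 9 lower, of which 5 and 2 had several symbols. Of these, 8 of the 40 and 1 of the 9 did not overlap: Acta2, Lpp, Mogat2, Hoxd9, Zfp949, Man1c1, Upk1b and the cluster shared by Isg15 and Gm9706 were higher, and Nudt10 was lower. The median standard error of a difference was 0.106. A difference must lie well above its standard error to be told from 0, and no cluster passed adjustment whatever its difference.

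The differences were small. Among the 226 higher clusters the difference of means, IVF minus mESCFB, had a median of 0.231 and ran from 0.04 to 0.78 on the log2 scale, and 14 clusters reached 0.5. Among the 230 lower clusters the median was -0.266 and the range -1.12 to -0.02. Of these, 26 were lower by at least 0.5 and 1 by at least 1. The nearest IVF and the nearest mESCFB line were at least 0.2 apart in 11 higher and 13 lower clusters. The split into higher and lower depended on the scaling: 49.6% of the members were higher in the deposited values and 28.8% (192 higher, 475 lower) after centring each line on its median. After quantile normalization, 209 clusters were higher and 239 lower, but only 115 of the 226 and 121 of the 230 members kept their side. Of the members named below for their size, gap or p, 16 of 17 higher and 15 of 19 lower clusters kept their side under both scalings.

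The miR-302 family held the widest gap among the lower members, and its mature sequences are shown because their seeds, bases 2 to 8, set which transcripts they recognize. The 5 hairpins lie within chr3:127545228-127545807 on the plus strand (GRCm38.p6, RefSeq), and of these Mir302c was the member. The seed is in capitals.
mmu-miR-302c-3p: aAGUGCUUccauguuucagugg
mmu-miR-302c-5p: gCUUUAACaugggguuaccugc
mmu-miR-302b-3p: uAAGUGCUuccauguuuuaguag
mmu-miR-302d-3p: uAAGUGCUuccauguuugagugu
mmu-miR-367-3p: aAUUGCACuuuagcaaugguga
The 3p arms of miR-302b and miR-302d share the seed AAGUGCU. The 3p arm of miR-302c is listed with a start 1 base later, so that its bases 2 to 8 read AGUGCUU. The 5p arms of miR-302b, miR-302c and miR-302d share the seed CUUUAAC, and miR-367-3p has the seed AUUGCAC.

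Mir302c stood at 3.64, 3.83 and 3.60 in FB1, FB2 and FB3. It stood at 2.89, 3.19 and 2.97 in the mESCKAA lines and at 3.19, 2.82 and 2.40 in the mESCWM lines. All IVF lines were lower, by 0.78 ± 0.16 (SE) on the log2 scale, and a gap of 0.41 lay between the nearest lines. The other hairpins had means below those of mESCFB but overlapped. The difference was -0.62 ± 0.27 for Mir302b, -0.80 ± 0.41 for Mir302d, -0.43 ± 0.37 for Mir302a and -0.53 ± 0.27 for Mir367. WM1 was the highest IVF line for all 4 of these, and for Mir302a and Mir367 it was above every mESCFB line. All 5 lay below the median level, and an array for long transcripts reads any RNA across a hairpin and not the mature arms alone.

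**Figure D1:**
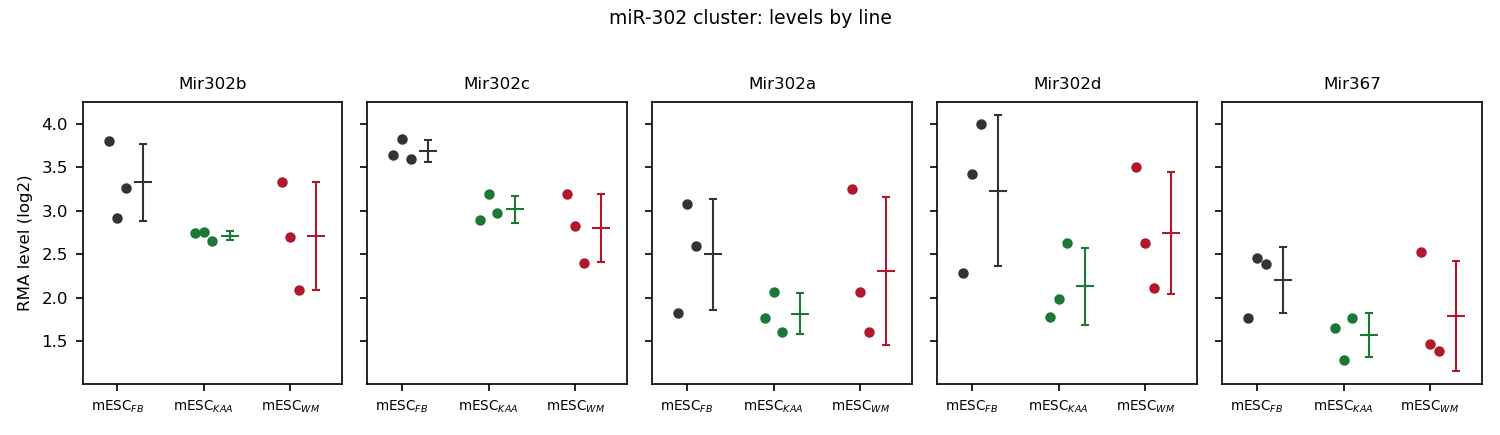
Levels of the 5 hairpins of the miR-302 cluster (log2, y axis) in each line (points) by group (x axis), with the mean and SD of 3 lines beside them. Mir302c separates the 3 mESCFB lines (3.60 to 3.83) from the 6 IVF lines (2.40 to 3.19), while the other 4 hairpins overlap.

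The other microRNA members were 5 in number and all higher: Mir331 by 0.21, Mir463 by 0.22, Mir136 by 0.15, Mir181c by 0.13 and Mir690 by 0.10. Their gaps were 0.0034 to 0.087, far narrower than that of Mir302c. They carry different seeds, CCCCUGG in miR-331-3p, ACAUUCA in miR-181c-5p and CUCCAUU in miR-136-5p, and none shares a seed with the miR-302 arms. Mir181c and Mir690 overlapped under both other scalings and Mir463 after median centring. Of all 299 microRNA clusters tested, 260 lay below the median level, and of these 1.54% were higher, against 1.38% of all clusters at such levels. These names were chosen as a class after their values were seen.

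The largest differences among the higher clusters were those of Acta2 and Lpp. Acta2, which encodes smooth muscle actin, stood at 7.87, 8.31 and 8.56 in FB1 to FB3, at 8.56, 8.88 and 8.67 in the mESCKAA lines and at 8.87, 9.82 and 9.34 in the mESCWM lines. All IVF lines were higher, by 0.78 ± 0.21 (SE) or 1.72-fold, although KAA1 lay just above FB3 and the groups overlapped after median centring. The difference from mESCFB was 0.46 in mESCKAA and 1.10 in mESCWM, comparisons that share the 3 mESCFB lines. Lpp, a focal adhesion protein, stood at 6.37, 5.38 and 6.10 in mESCFB and at 6.42 to 6.97 in the IVF lines. The lowest IVF line was close to FB1. The difference was 0.75 and, without FB2, 0.46, and the other 2 Lpp clusters overlapped, with differences of 0.24 and 0.18.

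Akap5 and Man1c1 had the widest gaps among the higher clusters. Akap5, an anchor of protein kinase A, stood at 4.39, 4.35 and 4.30 in mESCFB, at 4.76, 4.76 and 4.95 in mESCKAA and at 4.89, 5.00 and 4.81 in mESCWM. Its difference of 0.51 ± 0.073 (SE) came with the widest gap of all higher clusters, 0.37, and the lowest p of all clusters (limma, unadjusted p = 7.93e-05, adjusted p = 0.898). Man1c1, a Golgi mannosidase that trims N-glycans, stood at 4.23, 4.04 and 3.83 in mESCFB and at 4.54 to 4.77 in the IVF lines. Its difference was 0.64 ± 0.095, and the 6 IVF lines lay closer together than the mESCFB lines. Mogat2, an acyltransferase of triacylglycerol synthesis, stood at 3.60, 3.84 and 3.67 in mESCFB and at 3.93 to 4.79 in the IVF lines. KAA1 was again the IVF line nearest to mESCFB. Uckl1, a uridine kinase-like enzyme, was higher by 0.52 ± 0.12.

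Among regulators, the homeobox gene Hoxd9 stood at 4.18, 3.89 and 4.28 in mESCFB and at 4.51 to 5.17 in the IVF lines, a difference of 0.66 ± 0.13. The level was highest in KAA2 and lowest in WM3 among the IVF lines. Chd7, a chromatin remodeler of stem cells, has 30 clusters on the array, of which 2 were members, with differences of 0.57 and 0.52. Over all 30 the differences ran from -0.21 to 0.57, and 26 were above 0. Rspo1, a secreted amplifier of Wnt signaling, stood at 4.81, 4.97 and 5.08 in mESCFB and at 5.24 to 5.60 in the IVF lines. Its difference was 0.45 ± 0.089. Zfp949, a zinc finger gene, was higher by 0.64 ± 0.16 and Upk1b, a uroplakin of the bladder lining, by 0.59 ± 0.17.

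Of 28 interferon-induced genes measured, 16 were above 0 and 12 below, with a median of 0.025, and Irf7 was the only member. Ifnab, an interferon gene, stood at 3.22 to 3.78 in mESCFB and at 3.87 to 4.42 in the IVF lines. The cluster shared by the interferon-induced gene Isg15 and by Gm9706, which it cannot tell apart, stood at 3.60 to 4.02 in mESCFB and at 4.13 to 4.74 in the IVF lines. Irf7, which drives interferon genes, was lower in all IVF lines, by 0.21 ± 0.067, at 2.46 to 2.59 against 2.67 to 2.87. Acr (acrosin, 0.32), Pla2g2d (a secreted phospholipase, 0.42), 2900026A02Rik (0.43) and the X-linked receptor subunit gene Gabre (0.38) complete the higher genes named by p or gap.

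**Figure D2:**
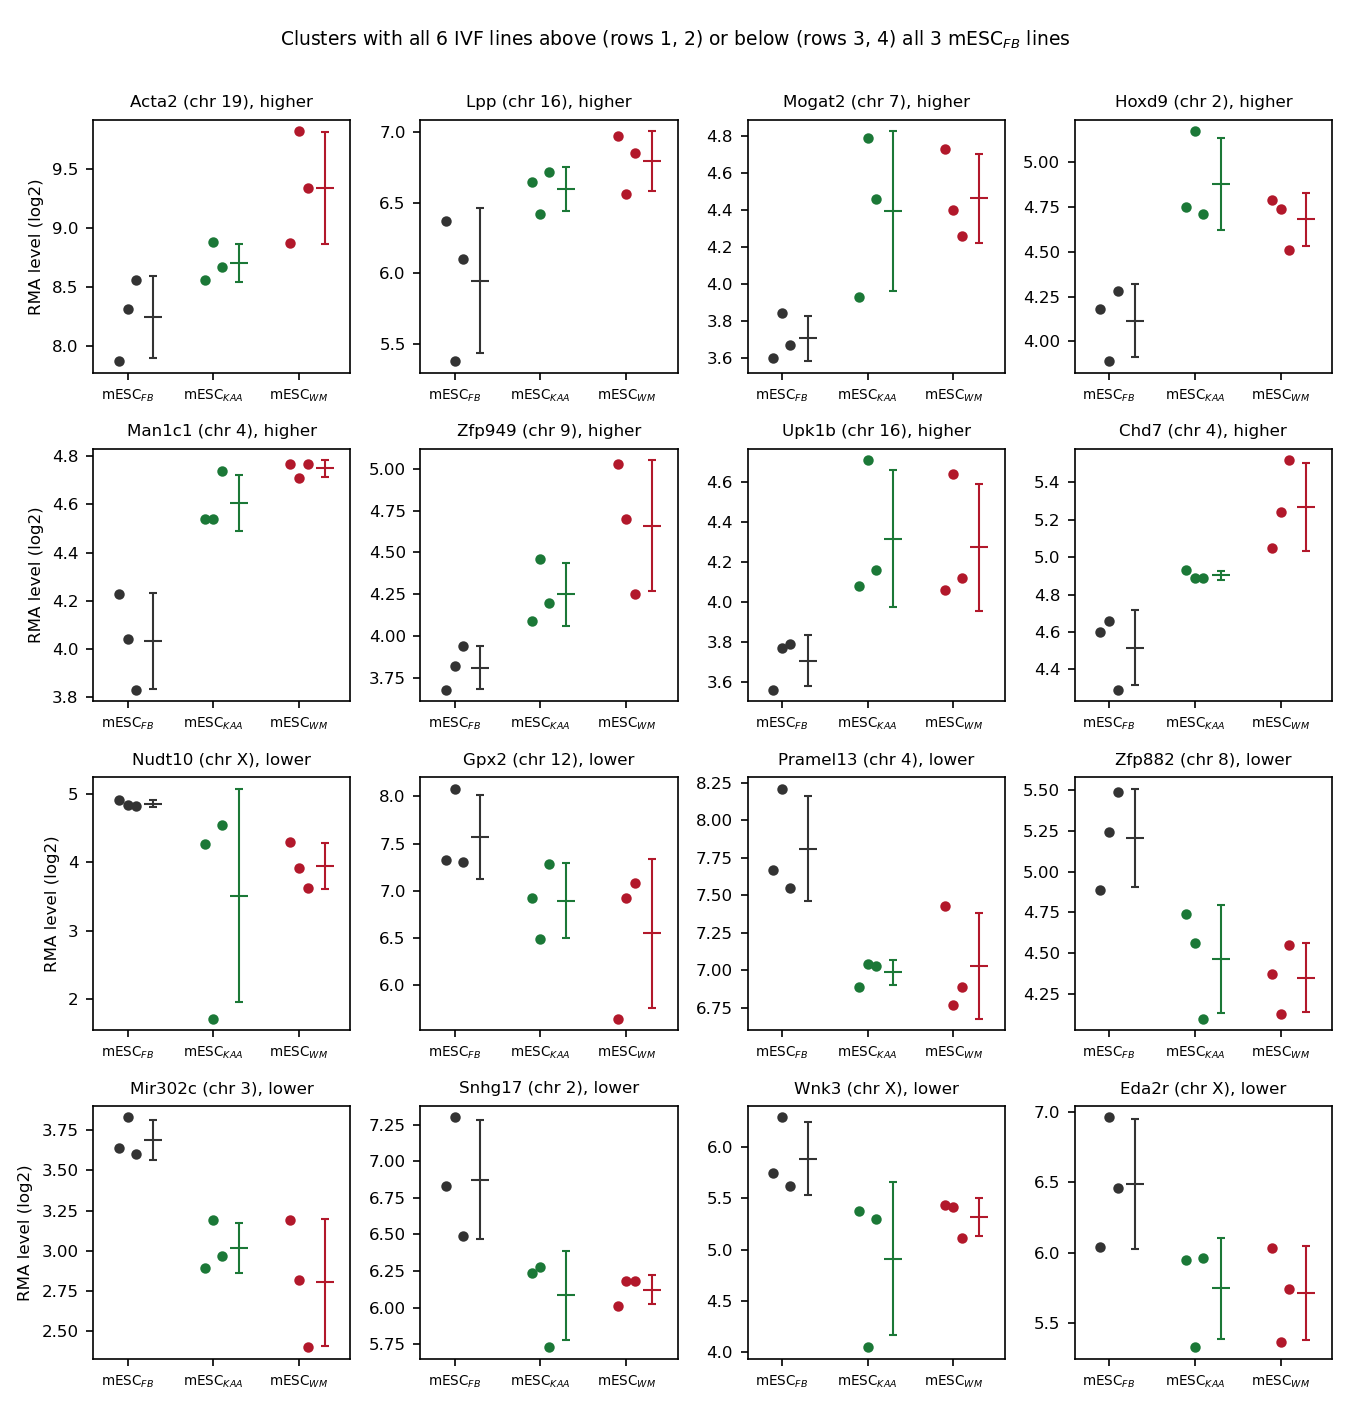
Levels (log2, y axis, a scale for each gene) of the 8 higher and the 8 lower genes with the largest differences, in each line (points) by group (x axis), with the mean and SD of 3 lines. In each panel the 3 mESCFB lines lie on one side of the 6 IVF lines, and KAA2 stands apart at 1.72 for Nudt10 and at 4.05 for Wnk3.

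The lower clusters were led by Nudt10, an X-linked hydrolase of inositol pyrophosphates. It stood at 4.91, 4.83 and 4.82 in mESCFB, at 4.27, 1.72 and 4.55 in mESCKAA and at 4.29, 3.91 and 3.62 in mESCWM. The mean was lower by 1.12 ± 0.55 on the log2 scale, and KAA2 alone lay far below the other IVF lines. Without KAA2 the difference was -0.68. Gpx2, a glutathione peroxidase, stood at 7.33, 8.08 and 7.30 in mESCFB and at 5.65 to 7.28 in the IVF lines, with 0.017 between the nearest lines. After quantile normalization its groups overlapped. Snhg17, a noncoding host of small nucleolar RNAs, was lower by 0.77 ± 0.18 in 1 of its 3 clusters, at 6.49 to 7.30 in mESCFB and 5.73 to 6.28 in the IVF lines. Its other 2 clusters overlapped, with differences of -0.044 and -0.32.

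Of 26 germline genes measured, none was a member and 7 were above 0, with a median of -0.081. Pramel13, Izumo2 and Dppa2 are not in that list. Pramel13, of the PRAME family that is active in germ cells and early embryos, stood at 7.67, 8.21 and 7.55 in mESCFB and at 6.77 to 7.43 in the IVF lines, a difference of -0.80 ± 0.18. Izumo2, a relative of the sperm fusion protein, stood at 4.76, 5.33 and 4.92 in mESCFB, at 4.55 in each mESCKAA line and at 3.66, 4.33 and 3.93 in mESCWM. The mESCWM lines were all below the mESCKAA lines. Dppa2, which primes genes of the early embryo, was lower in 1 cluster, at 8.31 to 8.76 in mESCFB and 7.48 to 8.27 in the IVF lines. That cluster overlapped after quantile normalization, and the Dppa2 cluster with the higher mean overlapped in the deposited values, with a difference of -0.44.

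The zinc finger genes Zfp882 and Zfp729b were lower by 0.80 ± 0.18 and 0.70 ± 0.19, and Zfp729b overlapped after quantile normalization. Rnu5g, an RNA of the spliceosome, was lower by 0.69 ± 0.16 and Sec11c, a subunit of the signal peptidase, by 0.61 ± 0.15. Kbtbd8, an adaptor of a ubiquitin ligase, was lower by 0.54 ± 0.12, and Ubxn8, Urm1 and Fam207a by 0.41, 0.41 and 0.33. Urm1 and Fam207a also overlapped after quantile normalization. For Ubxn8, Urm1 and Fam207a all mESCWM lines lay below all mESCKAA lines, with differences of -0.31, -0.36 and -0.22. Ndn (necdin), an imprinted gene expressed from the paternal allele, stood at 6.61, 7.08 and 6.78 in mESCFB and at 5.94 to 6.49 in the IVF lines, and it was the only member among 40 imprinted genes, whose median difference was -0.0048. The clusters 1700001J11Rik and Gm6020 were lower by 0.74 and 0.53, and without FB2 the first had a difference of -0.49.

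X-linked clusters were more often lower than autosomal ones, a description with no test of its own. Of 890 X-linked clusters 32 were lower (3.6%) and 10 higher (1.12%), against 195 of 21806 autosomal clusters lower (0.894%) and 212 higher (0.972%). Among clusters at or above the median level, 27 of 373 X-linked clusters were lower (7.24%) and 0 higher, with a median difference of -0.222, against 164 of 10826 autosomal clusters lower (1.51%) and a median of -0.02. The X-linked members included genes of general use in the cell, named after their values were seen: Dkc1 (dyskerin, -0.36), Nono (a splicing factor, -0.25), Fmr1 (an RNA-binding protein, -0.33), Pdha1 (pyruvate dehydrogenase, -0.32) and Bcor (a corepressor, -0.34). After quantile normalization, 21 of the 32 kept their side, among them Dkc1, Pdha1 and Bcor, while Nono and Fmr1 overlapped.

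FB2 and FB3 stood above all other lines in the level of X-linked genes. The median level of 351 X-linked clusters relative to 10550 autosomal ones was -0.047 in FB1, 0.295 in FB2 and 0.137 in FB3. It was -0.047, -0.098 and -0.055 in mESCKAA and -0.014, -0.046 and -0.085 in mESCWM. The mean was 0.128 ± 0.171 (SD, n = 3) in mESCFB and -0.058 ± 0.030 (SD, n = 6) in the IVF lines, and FB1 lay within the range of the IVF lines. The difference of -0.186 comes from the contrast that chose the members and is a description. Without FB2 it was -0.093. Without FB1, 168 X-linked clusters were lower (18.9%), against 748 autosomal ones (3.43%). Without FB2 there were 42 (4.72%) against 523 (2.4%). Without FB3 there were 51 (5.73%) against 497 (2.28%). In that setting 38 X-linked clusters (4.27%) were higher, against 774 autosomal ones (3.55%). Xist was at 2.53 to 3.95 in all 9 lines, below the median of all clusters.

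**Figure D3:**
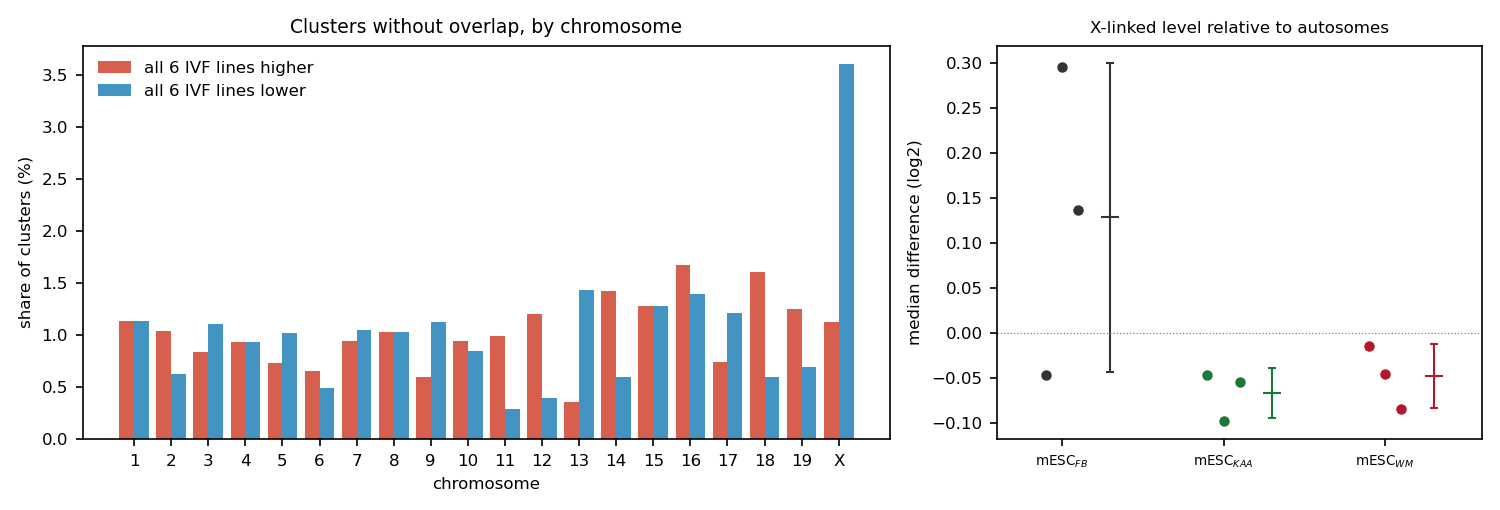
Left, share of the clusters of each chromosome (x axis) that were higher or lower in all 6 IVF lines (y axis, percent). Right, median level of 351 X-linked clusters relative to 10550 autosomal clusters (log2) in each line (points) with the mean and SD of 3 lines by group. The X has the highest share of lower clusters (3.6%), and FB1 lies at -0.047 among the IVF lines.

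The list of the X inactivation centre also holds X-linked genes far from it, and all its measured genes lay below 0. All 19 measured genes of that list, which holds X-linked regulators and genes used as readouts of X dosage and lies wholly on the X, had a mean below that of mESCFB, with a median of -0.27 (all clusters 0.00629), and 3 were members. Of the 19, 15 lay at or above the median level, where the median of all X-linked clusters was -0.222, so that the list lay near the rest of the chromosome. Tsx, a gene beside Xist, stood at 5.95, 5.73 and 6.09 in mESCFB and at 5.09 to 5.48 in the IVF lines, a difference of -0.59 ± 0.12. Xiap, an inhibitor of apoptosis, was lower by 0.42 ± 0.14 and Ddx3x, an RNA helicase, by 0.18 ± 0.096 in 1 of its 2 clusters, where the difference was -0.11 without KAA2. Kdm6a, a histone demethylase that escapes X inactivation, overlapped at a difference of -0.38 ± 0.15. Wnk3 and Eda2r, also X-linked, stood at 5.62 to 6.29 and at 6.04 to 6.96 in mESCFB. Wnk3, a kinase that controls ion transport, was at 4.05 in KAA2 and at 5.11 to 5.44 in the other IVF lines. Eda2r, a receptor induced by p53, was at 5.33 to 6.03.

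The start regions of members differed in their CG content, and 4 with many or few CG pairs are printed. Each runs from 250 bases before to 50 after the start site that RefSeq lists (GRCm38.p6), with CG in capitals.
Akap5, chr12:76324641-76324940, plus strand: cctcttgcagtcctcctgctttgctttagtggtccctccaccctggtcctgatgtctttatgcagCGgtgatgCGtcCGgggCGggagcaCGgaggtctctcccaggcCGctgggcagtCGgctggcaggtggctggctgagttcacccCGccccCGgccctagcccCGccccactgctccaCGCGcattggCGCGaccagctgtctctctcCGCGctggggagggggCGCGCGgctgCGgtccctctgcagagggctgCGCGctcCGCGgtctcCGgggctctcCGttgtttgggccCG
Nudt10, chrX:6172942-6173241, minus strand: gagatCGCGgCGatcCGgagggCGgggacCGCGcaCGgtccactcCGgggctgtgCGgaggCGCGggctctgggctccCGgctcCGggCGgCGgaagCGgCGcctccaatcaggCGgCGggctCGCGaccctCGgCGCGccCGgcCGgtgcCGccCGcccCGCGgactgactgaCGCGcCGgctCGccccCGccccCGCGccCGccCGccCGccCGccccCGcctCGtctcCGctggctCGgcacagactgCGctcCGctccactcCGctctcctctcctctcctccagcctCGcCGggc
Tsx, chrX:103414217-103414516, plus strand: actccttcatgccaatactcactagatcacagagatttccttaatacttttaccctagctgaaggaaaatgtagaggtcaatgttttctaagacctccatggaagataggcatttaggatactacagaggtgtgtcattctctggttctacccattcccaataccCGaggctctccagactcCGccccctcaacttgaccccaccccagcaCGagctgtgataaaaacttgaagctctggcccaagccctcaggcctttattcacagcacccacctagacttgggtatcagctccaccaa
Pou5f1, chr17:35505782-35506081, plus strand: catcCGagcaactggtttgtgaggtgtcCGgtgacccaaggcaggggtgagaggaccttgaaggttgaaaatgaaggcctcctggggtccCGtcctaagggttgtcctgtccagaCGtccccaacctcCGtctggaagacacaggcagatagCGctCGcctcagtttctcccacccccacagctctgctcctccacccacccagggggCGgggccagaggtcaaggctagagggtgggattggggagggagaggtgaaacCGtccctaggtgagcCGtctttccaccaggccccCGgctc
Nudt10 holds 51 CG pairs in 300 bases, Akap5 27, Pou5f1 11 and Tsx 3. Akap5 was a higher member and the others were lower, so that these 4 do not stand for the sets compared next. A ratio of observed to expected CG of at least 0.6 was found in 75% of 184 lower and 37.7% of 154 higher genes with a promoter in the table, against 52.4% of 15563 genes tested with one. Much of this went with level: at or above the median level the shares were 81% of lower, 66.7% of higher and 77.5% of all genes, and below it 40.7% (11 of 27), 24.5% and 26.4%. The letters TATAAA on either strand were in 5.43% of lower, 18.8% of higher and 12.1% of all promoters. Here too level differed: below the median level the shares were 7.41% (2 of 27), 23.6% and 17.6%, and in the other genes 5.06%, 8.33% (4 of 48) and 6.69%. Of X-linked genes, 69.2% of the lower and 39% of all tested reached the CG ratio, and 15.4% (4 of 26) and 11.9% held TATAAA. These sets differed in level as well: 27 of 32 lower X-linked clusters lay at or above the median level, against 373 of all 890. At that level 77.5% of all genes reached the ratio.

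The genes of both pluripotency lists overlapped between the groups, apart from Tdgf1 and Pou5f1. Of 29 genes of the naive network, 4 had a difference above 0, the median was -0.15, and Tdgf1 was the only member. Tdgf1 (Cripto, a coreceptor of Nodal) stood at 11.93, 11.82 and 11.87 in mESCFB and at 11.59 to 11.79 in the IVF lines, a difference of -0.19 ± 0.056. Of 13 core genes, 2 were above 0, the median was -0.15, and Pou5f1 was the only member. Pou5f1 stood at 10.43, 10.34 and 10.31 in mESCFB and at 10.07 to 10.30 in the IVF lines, with 0.016 between FB3 and KAA1. Both overlapped after quantile normalization. The median deviation of the genes from their mean over the lines was highest in WM2 for the naive list (0.33, against 0.013 to 0.27 in mESCFB) and in WM3 for the core list (0.16, against -0.0088 to 0.14). Nanog (-0.05 ± 0.36), Sox2 (-0.0077 ± 0.12), Klf4 (-0.11 ± 0.25) and Esrrb (-0.18 ± 0.26) overlapped, and the 12 genes of the 2-cell-like state had a median of -0.38, where this deviation was 1.2 in FB2 and between -0.37 and 0.099 in every other line.

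The lists for metabolism, stress and growth held at most 1 member each. Of 21 genes of the ATF4 response to amino acid shortage, 20 were above 0 with a median of 0.096, none was a member, and without FB1 the median was 0.18. The closest to a member was Fgf21, a hormone of the fasting response, at 0.22 ± 0.088. Of 20 genes of cholesterol synthesis 16 were above 0 with a median of 0.12, and Fdft1 (squalene synthase) was a member in 1 of its 2 clusters, at 8.85 to 8.88 in mESCFB and 9.08 to 9.56 in the IVF lines. Cyc1 of the respiratory chain (-0.18), Txnrd1 of the NRF2 response (-0.17), Dnajb11 of the endoplasmic reticulum (-0.19), Higd1a of the hypoxia response (-0.14, 1 of 2 clusters) and Eif3l of translation initiation (-0.13) were the only members of their lists. After quantile normalization Cyc1, Txnrd1, Higd1a and Eif3l overlapped, and Higd1a also after median centring. The medians of those lists were -0.042, -0.052, -0.022, -0.021 and -0.058, and that of 47 ribosomal protein genes was -0.013. No member of the 30 lists (654 genes measured) passed limma.

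Lineage genes and feeder genes overlapped apart from Acta2. Of 28 feeder fibroblast genes 21 were above 0, with a median of 0.098, and Acta2 was the only member. Over all clusters 52.3% were above 0, a share to set beside such counts in every list. It was 63.5% below the median level and 41.2% at or above it, where 15 of the 28 lay. Fn1 (fibronectin) stood at 8.16, 7.47 and 7.42 in mESCFB and at 7.80 to 8.65 in the IVF lines, so that FB1 lay among the IVF lines. Acta2 is itself 1 of the 15 fibroblast markers. The level of the other 14 was 4.98 to 5.18 in the IVF lines and 4.93 to 4.94 in mESCFB, and its part in the Acta2 result was not tested. Of 17 primitive endoderm and 16 basement membrane genes, 13 and 12 were above 0, with medians of 0.053 and 0.097, and the second was 0.53 without FB1, KAA2 and WM3. FB1 and KAA1 had the highest median deviation in both lists, 0.3 and 0.58 for primitive endoderm and 0.28 and 0.6 for basement membrane. Primitive streak (0.096), trophectoderm (0.068), neural ectoderm (0.06) and primed epiblast (-0.11) held no member.

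**Figure D4:**
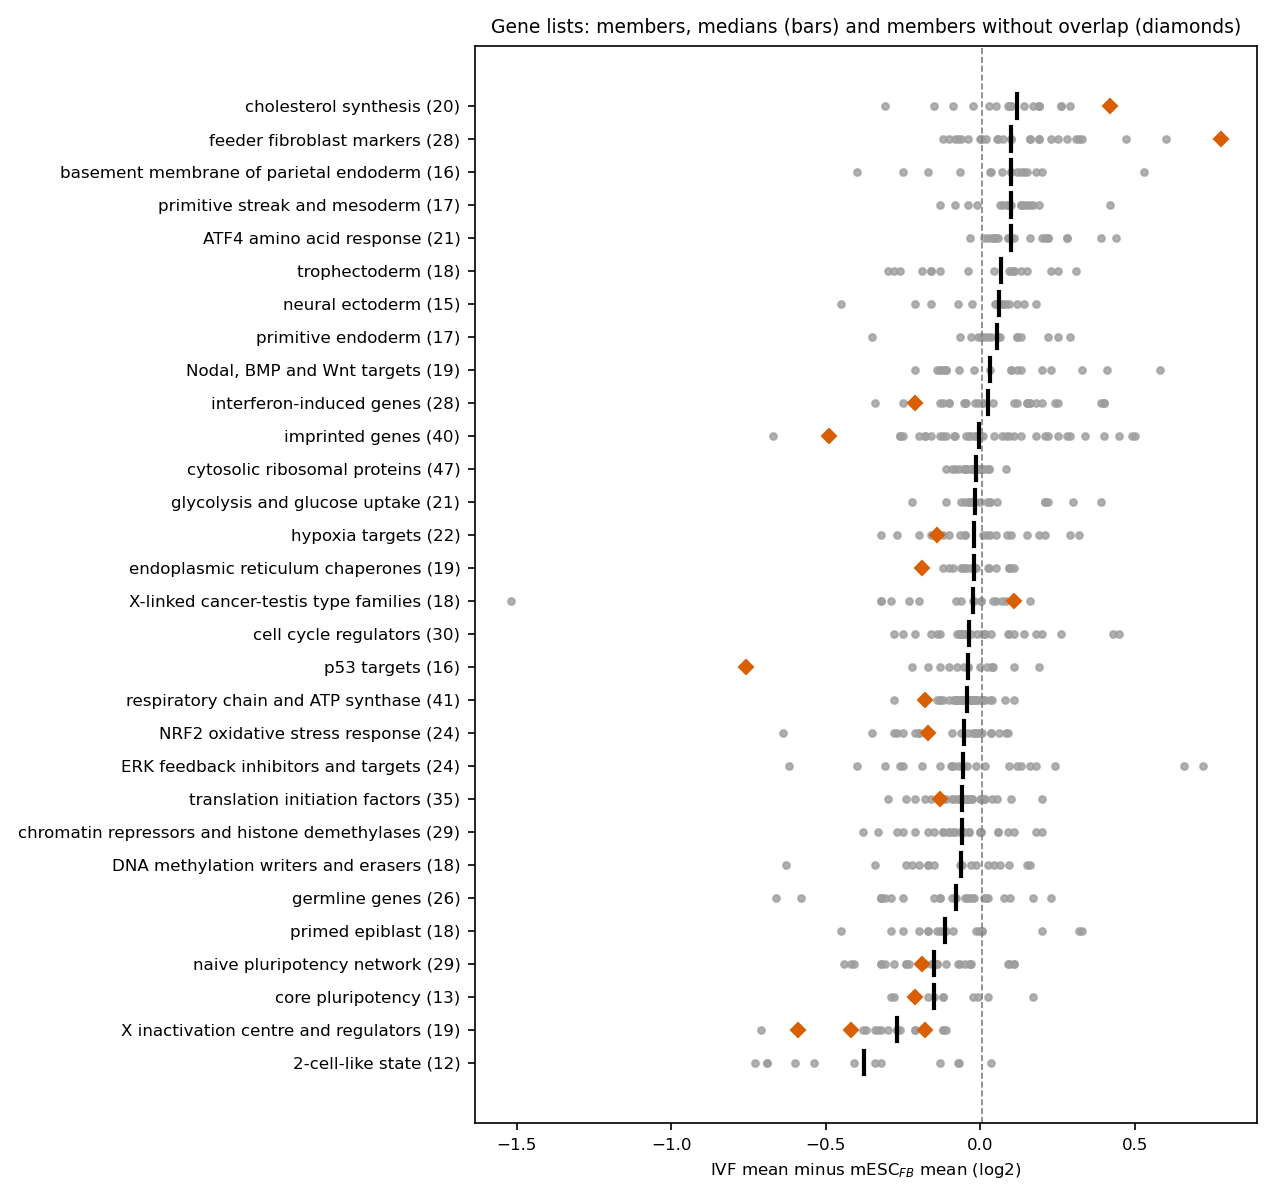
Difference of means, IVF minus mESCFB (log2, x axis), of each measured gene of 30 lists (points, number of genes in brackets), with the median of each list (bars) and the members without overlap (diamonds). The dashed line is the median of all tested clusters, 0.00629. The list of the X inactivation centre and other X-linked regulators has all 19 genes below 0 and 3 members.

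The higher and the lower members lay at different levels. The median level was 3.84 for the higher and 6.80 for the lower clusters, and 161 of the 226 higher but 36 of the 230 lower clusters were below the median of all clusters. Below that median 1.38% of clusters were higher and 0.308% lower, and at or above it 0.555% were higher and 1.66% lower. All clusters shifted the same way, with a median difference of 0.035 below and -0.0219 at or above the median level. The higher genes named above that lay below the median level included Mogat2, Hoxd9, Zfp949, Man1c1, Upk1b, Ifnab, Acr, Pla2g2d, Gabre and the Isg15 cluster. The lower ones there included Nudt10, Mir302c, Izumo2, Rnu5g, Irf7, 1700001J11Rik and Gm6020. The interquartile range of the levels, a measure of the spread on each array, was 3.72 in FB1, 3.57 in FB2, 3.58 in FB3 and 3.41 to 3.69 in the IVF lines, and its part in the members was not tested. Sensory receptor genes (Olfr, Vmn and Tas2r), a class chosen after its values were seen, made up 18 of the 161 higher clusters below the median level (11.2%), near their share of 12% among all clusters there.

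**Figure D5:**
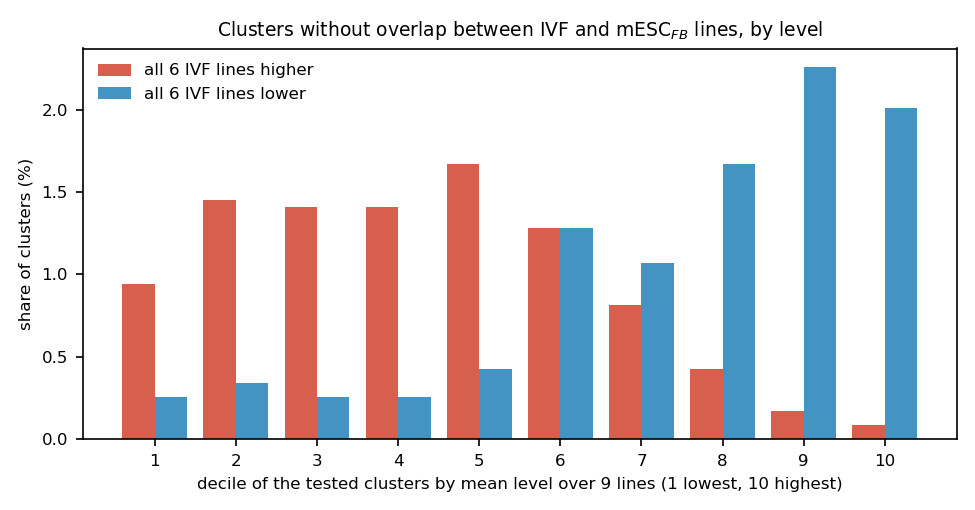
Share of clusters (y axis, percent) that were higher or lower in all 6 IVF lines, by decile of mean level over the 23410 tested clusters (x axis). The share of higher clusters is 1.67% in the 5th and 0.0854% in the 10th decile, and that of lower clusters 0.256% in the 1st and 2.26% in the 9th.

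The 2 IVF groups were compared for the same members in the same fit. No cluster passed limma for mESCWM against mESCKAA (0 of 23410, lowest adjusted p 0.253, with 1473 at an unadjusted p under 0.05). Among the 456 members the adjusted p was at least 0.752. Over all clusters 943 (4.03%) had all mESCWM lines above all mESCKAA lines and 1084 (4.63%) below. Among the higher members 9 (3.98%) were above and 18 (7.96%) below, and among the lower members 3 (1.3%) were above and 20 (8.7%) below. The members above included 1 Chd7 cluster (0.37), and those below included Izumo2 (-0.58) and Tdgf1 (-0.16). Spry4, an inhibitor of ERK signaling, was among the lower genes with the smallest p but overlapped. It stood at 8.35 to 8.61 in mESCKAA, at 8.39 to 8.55 in mESCFB and at 6.98 to 7.57 in mESCWM, and its difference between the cultures of -1.20 ± 0.14 did not pass (limma, adjusted p = 0.253). Nqo1, a quinone reductase of the NRF2 response, overlapped by 0.017 at a difference of -0.64 ± 0.13.

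At the edge of the rule the values were almost equal. Just inside were 1700116B05Rik and Olfr710, higher with gaps of 0.00025 and 0.00075, and Rnf168 and Ubap2, lower with gaps of 0.00045 and 0.0014. Just outside were Slamf7 and Vmn1r28 on the higher side and Mir376c and Olfr1101 on the lower side, with a gap of 0. For Ubap2 the mean difference was -0.029 ± 0.056, below its standard error, and -0.01 without WM3. For Rnf168 it was -0.17 and, without KAA2, -0.10.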

How the data were processed

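Mouse Gene 1.0 ST arrays were hybridized with total RNA of 9 mESC lines, 3 lines per group and 1 array per line. The deposited values are log2 levels made by the authors with RMA (Affymetrix Expression Console and R 3.1.0, affylmGUI), in which background correction and normalization between arrays precede the summary of each transcript cluster's probes, so that differences between arrays in total signal are largely removed. The genome build of the probes is not given in the sources used here. Groups and line numbers came from the sample labels.

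Of 35556 clusters the 23410 with an annotated gene were tested, 21789 of them with 1 symbol and 1621 with several, which are given as shared. Symbols were updated through Entrez gene numbers to RefSeq (GRCm38.p6). No filter on level was set. limma 3.58.1 in R 4.3.3 fitted 1 mean per group over all 9 lines, and the contrast was the mean of the mESCKAA and mESCWM means minus the mESCFB mean, two-sided, with Benjamini-Hochberg adjustment over 23410 clusters and a threshold of 0.05. The count of clusters without overlap between the IVF and mESCFB lines has no test. In gene lists each gene is represented by its cluster of highest mean, and lists are described by counts and medians. The X-linked level of a line is the median deviation of X-linked clusters from their means minus that of autosomal clusters. The exact permutation p planned for it shares the contrast that chose the members and is not given.

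Genes were named by a rule: in each direction the 12 largest differences among members, the 8 smallest p-values and the 6 widest gaps, up to 3 members of each list, cell type markers and the 2 clusters on either side of the limit. The members and lists were chosen with earlier results of these data known. Alternatives were all rows, clusters at or above the median level, 1 cluster per symbol, autosomal clusters, quantile normalization, median centring, 2 groups, a replicate block, eBayes with trend or robust (statmod 1.5.0), the rank product that the methods of the study name (100 permutations within arrays, false positives under 0.05), a gap of 0.2, and leaving out lines. Scripts were tested on simulated data and used Python 3.11.15, numpy 2.4.6, pandas 2.3.3, scipy 1.17.1 and matplotlib 3.10.9. The number of arrays limits the precision. Lines of a group are separate isolates.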

Additional observations from a re-analysis of the deposited data

Results flagged for a closer look

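Among 39 genes named for their difference, p or gap, the 6 IVF lines were searched for a line far from the others, and 5 such values were found, in KAA2, WM2 and WM3. Chance alone marks about 1 group in 20, a rate that need not hold for genes chosen for their differences. Of these, 3 concern KAA2, which stood at 1.72 for the X-linked gene Nudt10, at 4.05 for the X-linked gene Wnk3 and at 4.60 for Zfp729b. Its gap to the next line was 0.673, 0.768 and 0.625 of the whole range of the 6 lines. KAA2 was also 1 of the lines with more Eif2s3y (3.72) and had the lowest X-linked level (-0.098). Gabre stood at 3.22 in WM3, with a gap of 0.936 of the range, and the other IVF lines lay at 2.83 to 2.86. 1700001J11Rik stood at 2.63 in WM2, with a gap of 0.681 of the range.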

How the results depend on the processing

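The count of 0 clusters past limma for the IVF lines against mESCFB held in every limma fit, with a lowest adjusted p of 0.352 when 1 line was left out and 0.767 with the replicate block, while the rank product gave 49. For mESCWM against mESCKAA the count was 0 except without WM3, so that leaving out 1 line gave 0 to 1. Clusters higher in all IVF lines numbered 355 over all rows, 65 at or above the median level, 11 with a gap of 0.2, and 269 to 931 with 1 line left out. Clusters lower in all numbered 475 after median centring, 13 with a gap of 0.2, and 278 to 935 with 1 line left out. Fewer lines leave fewer conditions to meet: without FB1 there were 931 and 935, without FB2 748 and 576, without FB3 833 and 554, without WM1 372 higher, and without KAA1 and KAA3 349 and 391 lower. Without FB1, KAA2 and WM3 together there were 1663 and 1496. The X-linked difference was -0.173 after quantile normalization, -0.269 to -0.093 with 1 line left out, and -0.257 without FB1, KAA2 and WM3. The differences of 68 named genes kept their direction in all 1326 alternatives, which for members is fixed by their choice when lines are left out and is no sign of stability. List medians moved by more than the spread between lines in 23 of 419 alternatives. Lines were not treated as paired, because only 5 of 9 same-number pairs correlated above 0.1 (-0.013 to 0.328, other pairs -0.242 to 0.132). As a hint from the data, 8 of 9 lines correlated best with a line of their number. The replicate block gave 1509 clusters with an unadjusted p under 0.05 against 1166. Causes were not tested beyond this construction.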
